A study of Caenorhabditis elegans with 2 samples.

Results

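Strong CEH-19 ChIP-seq regions inside introns of protein-coding genes are described for late embryos of Caenorhabditis elegans, a nematode. They were chosen by 3 criteria from the 30000 regions that the authors called on both libraries together. The authors named this list peaks and background, so it holds background as well as peaks. Of its regions 1112 were in the authors' list of reproducible peaks, all with a signal value of 80 or more. The signal value of the region had to be 80 or more. Its summit had to lie on an autosome, within a protein-coding gene and in none of that gene's exons. It also had to lie outside every promoter window, which reached from 500 bp before a protein-coding gene's start to 100 bp after it, and more than 200 bp from any tRNA, snoRNA or snRNA gene. These criteria kept 507 regions, called strong intron regions here, of all 30000 and of 7832 autosomal regions at the same kind of place. The other 7325 had lower signal values and are called weaker intron regions. None of these was in the reproducible list, and how many are background is unknown. A comparison with them therefore need not be one between 2 strengths of binding. Of all pooled regions 8.86% reached 80, a share the rule itself uses. On the autosomes 6.47% of the intron regions did, against 15.3% of promoter, 9.21% of intergenic and 1.97% of exon regions.

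The worms were of strain OP739, which carries the unc-119 allele tm4063 and the integrated transgene wgIs739. From this transgene the worms express ceh-19 with TY1, EGFP and 3xFLAG added to its protein, and it also brings unc-119(+). Whole late embryos of mixed sex, aged 5 hours and synchronized by egg bleaching, were used, and sonicated chromatin of 200 to 800 bp was precipitated with an antibody against GFP. All samples form 1 group, the biological replicates 2 and 3, and both carry the transgene. Worms without the tag were not analysed here, and dependence of a region on CEH-19 was therefore not tested. A region read from whole embryos also does not show in which cells the protein lay.

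Introns of worm genes are mostly short, and the few long ones, often those nearest the 5' end, are known to hold enhancers, promoters of shorter isoforms and genes of small RNAs. CEH-19 is a homeodomain transcription factor of the pharyngeal MC motor neurons and a few other neurons. Homeodomain proteins commonly bind DNA words with a TAAT core. Repeats of GA are known from promoters and introns of worm genes that are open in many tissues.

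The sequence around the summit is shown for the 12 strongest of the regions that lie outside the chromosome whose sequence is not printed here, since these summits carry the highest signal values. Each has 51 bases of the plus strand of ce11, read from the RefSeq copy of that assembly, with the summit in the centre. Capitals mark GAGAG and ACACAC, read on either strand.
M01F1.8, chrIII:3500000-3500050: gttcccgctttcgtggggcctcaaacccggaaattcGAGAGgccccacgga
T24B8.3, chrII:9060435-9060485: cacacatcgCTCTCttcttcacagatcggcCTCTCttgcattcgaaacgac
mdt-26, chrII:5661849-5661899: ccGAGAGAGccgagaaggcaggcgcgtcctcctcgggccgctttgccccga
klp-6, chrIII:5031584-5031634: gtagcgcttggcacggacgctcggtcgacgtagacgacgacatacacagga
tba-7, chrIII:11371452-11371502: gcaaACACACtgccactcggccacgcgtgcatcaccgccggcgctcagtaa
srt-52, chrV:53467-53517: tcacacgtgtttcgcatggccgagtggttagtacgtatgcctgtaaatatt
unc-104, chrII:7001619-7001669: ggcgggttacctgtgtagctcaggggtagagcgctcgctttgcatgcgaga
exc-7, chrII:9577779-9577829: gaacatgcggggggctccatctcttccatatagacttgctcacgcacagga
drap-1, chrV:9731184-9731234: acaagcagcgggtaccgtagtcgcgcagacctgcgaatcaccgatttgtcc
ast-1, chrII:4130431-4130481: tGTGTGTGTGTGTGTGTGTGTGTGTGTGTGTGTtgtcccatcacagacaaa
Y57G11C.22, chrIV:14838349-14838399: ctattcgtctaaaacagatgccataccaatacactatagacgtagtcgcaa
pqn-41, chrIII:1923675-1923725: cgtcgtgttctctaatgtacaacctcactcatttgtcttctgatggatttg

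Regions on that same chromosome were again left out. Of the rest, the 5 regions below, outside the 12 above, had the longest uninterrupted repeats of GA within 50 bp of the summit. They show what the GA word looks like where it is longest among these. In daf-2 the repeat runs on past the left end of the printed bases, and in Y53G8AM.8 and cnt-2 past the right end.
daf-2, chrIII:3037405-3037455: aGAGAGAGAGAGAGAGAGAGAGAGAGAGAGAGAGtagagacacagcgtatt
Y53G8AM.8, chrIII:3271907-3271957: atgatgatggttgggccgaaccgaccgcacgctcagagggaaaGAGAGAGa
mnk-1, chrII:10549085-10549135: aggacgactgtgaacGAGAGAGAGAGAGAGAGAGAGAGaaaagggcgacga
cnt-2, chrIII:10672072-10672122: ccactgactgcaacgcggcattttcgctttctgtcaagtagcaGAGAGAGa
ntl-3, chrIII:11836127-11836177: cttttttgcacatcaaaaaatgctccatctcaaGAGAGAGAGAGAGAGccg

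These repeats did not go with the highest signal values. The daf-2 region, in an intron of the insulin receptor gene, had a repeat of 40 bp and a pooled signal value of 111. The mnk-1 region, in a kinase gene, had 24 bp and 81.0, close to the lower limit of 80. The cnt-2 region, in a gene of a GTPase-activating protein, had 22 bp and 145.

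Values of single regions are given next, in the order of the pooled signal value, which chose them and is therefore described with no test. The signal value is the number that the authors' peak caller gave each region, with no normalization stated, and is used here to rank regions within a list. The strongest intron region lay in intron 4, the last, of M01F1.8 at chrIII:3499877-3500175, with 716 in the pooled list, 274 in replicate 2 and 438 in replicate 3. The next lay in intron 5 of ints-8, a subunit gene of the Integrator complex, with 526, 234 and 290. The ints-8 summit lay within 200 bp of rpr-1, which encodes the RNA of RNase P. Only these 2 had values above 200 in either replicate.

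The third, in intron 1 of K05C4.2, had 324 in the pooled list, 132 in replicate 2 and 195 in replicate 3. T24B8.3 followed with 321, 139 and 183 in its intron 2. In mdt-26, which encodes a subunit of the Mediator complex, the region in intron 2 had 319, 127 and 189. These 3 regions had nearly equal values, and their order differed between the replicates.

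In klp-6, a kinesin gene, the region in intron 2 had 299, 136 and 171, and srpr-2.2 and another non-coding gene lay within 200 bp. In intron 4 of ppfr-1, a regulatory subunit gene of protein phosphatase 4, 2 neighbouring regions had 298 and 278, beside the antisense gene anr-20. The tba-7 region, in intron 1 of a gene of the alpha-tubulin family, had 276, 123 and 167 and had 3 non-coding genes within 200 bp. Of the 9 strongest regions, 5 thus had an annotated non-coding gene within 200 bp, and of the 25 strongest 9 had. The unc-104 region, described next, had a pseudogene there.

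In intron 2 of srt-52, a chemoreceptor-family gene, the region had 270, 113 and 143. The unc-104 region had 270, 128 and 139 and lay in intron 5 of that gene, which encodes a kinesin of synaptic vesicle transport. The region in intron 1 of let-526, a chromatin remodelling subunit gene, had 264, 113 and 159, with an ncRNA and an antisense RNA gene beside it.

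The exc-7 region had 249 in the pooled list, 97.7 in replicate 2 and 158 in replicate 3, in intron 1 of a gene of the ELAV family of RNA-binding proteins. The drap-1 region had 230, with 161 in replicate 3 and no summit within 100 bp in replicate 2. The ast-1 region, in intron 5 of a gene of an ETS transcription factor, had 219 and nearly equal replicate values of 110 and 107. By rank these differed, at 141 in the list of replicate 2 and 399 in that of replicate 3. The pbrm-1 region, in intron 9 of a chromatin remodelling subunit gene, had 216 and unequal replicate values of 42.3 (rank 2074) and 146 (rank 174). Replicate values of single strong regions thus ranged from nearly equal to several-fold apart. The values were not brought to a common scale, and those of replicate 3 were mostly higher, so equal values do not mean equal ranks.

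Other members of the 25 strongest lay in K10C3.4 (224), uba-5 (222), T02E1.2 (221), Y57G11C.22 (212), pqn-41 (210), zfp-1 (204), gsa-1 (204), larp-1 (198) and gpb-1 (198), each with its pooled signal value. The gene uba-5 encodes a ubiquitin-like activating enzyme. The genes gsa-1 and gpb-1 encode subunits of heterotrimeric G proteins.

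**Figure D1:**
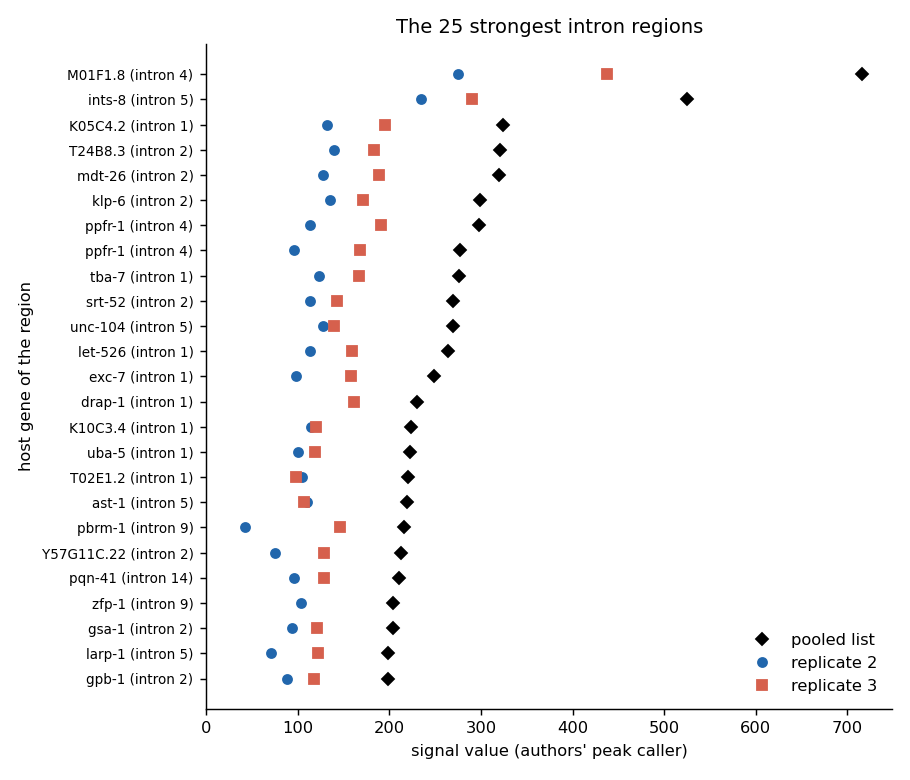
Signal values (horizontal axis, as the authors' peak caller wrote them) of the 25 strongest intron regions, by host gene and intron number, in the pooled list (diamonds), replicate 2 (circles) and replicate 3 (squares). M01F1.8 at 716 and ints-8 at 526 stand above the others, and a missing mark (drap-1 in replicate 2, zfp-1 in replicate 3) means no summit within 100 bp.

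By chromosome, the strongest region was ints-8 on I, T24B8.3 on II, M01F1.8 on III, Y57G11C.22 on IV and srt-52 on V. The number of strong intron regions was 111 on I, 100 on II, 120 on III, 92 on IV and 84 on V. Per Mb of chromosome this was highest on III, at 8.71, and lowest on V, at 4.01. As a share of the intron regions of each chromosome the contrast was smaller. From I to V it was 6.32, 6.67, 7.14, 6.66 and 5.55%, against 6.47% over all autosomes. Just inside the lower limit of 80 lay regions in Y43F8C.3 (80.1), Y59C2A.2 (80.1) and pptr-2 (80.04), and just outside it regions in Y54G2A.16 (79.99), unc-73 (79.96) and faxc-1 (79.95). Regions on both sides of the limit thus hardly differ in value.

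The replicates were set side by side next. Because the pooled values rest on both libraries, these figures are a description. Of the 507 regions, 444 had a summit within 100 bp in replicate 2, 480 in replicate 3 and 419 in both (82.6%, exact 95% interval 79.1 to 85.8%). Among all 2658 pooled regions with a signal value of 80 or more, 83.7% had a summit in both, a background for the share above. Strong promoter regions on the autosomes reached 88.1% (531 of 603) and strong intergenic ones 82.2% (454 of 552). By this measure the share in introns was near the background.

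Fewer were strong in both replicates. Among the 2658 strongest regions of replicate 2 were 269 of the intron regions, among those of replicate 3 were 352, and in both were 179 (35.3%, exact 95% interval 31.1 to 39.6%), against a background of 42.9%. In neither were 65. Of strong promoter regions 44.9% were among the strongest of both replicates, and of strong intergenic ones 41.1%. The authors' list of reproducible peaks, whose lowest pooled signal value was 113, held 161 of the 507 (31.8%), against a background of 41.8% of the regions with 80 or more and 3.71% of all pooled regions. That list holds the strongest pooled regions, so nothing is read from this share. Agreement rose with the pooled value. Of 269 regions with 80 to 100, 9.67% were among the strongest of both replicates. Of 177 with 100 to 150 it was 55.4%, and of 61 with 150 or more 90.2%.

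In the 419 regions found in both, the median signal value was 42.7 in replicate 2 and 60.2 in replicate 3. The log2 ratio of replicate 3 to replicate 2 had a median of 0.51 and an SD of 0.63, and 78 of the 419 were higher in replicate 2. Promoter regions had a median of 0.51 (n = 531) and intergenic ones 0.52 (n = 454). The difference between introns and promoters was 0.0047 (two-sided permutation test with 100000 resamples, p = 0.915, adjusted p = 0.923 over 2 comparisons), and that between introns and intergenic regions was -0.0035 (p = 0.923, adjusted p = 0.923), so neither difference was detectable. The rank correlation between the replicates over these 419 regions was 0.261 (Spearman's rho), a description over regions of 1 pair of libraries, restricted by the limit on the pooled value. Under the same limit it was 0.442 for promoter and 0.313 for intergenic regions, a difference that was not tested.

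**Figure D2:**
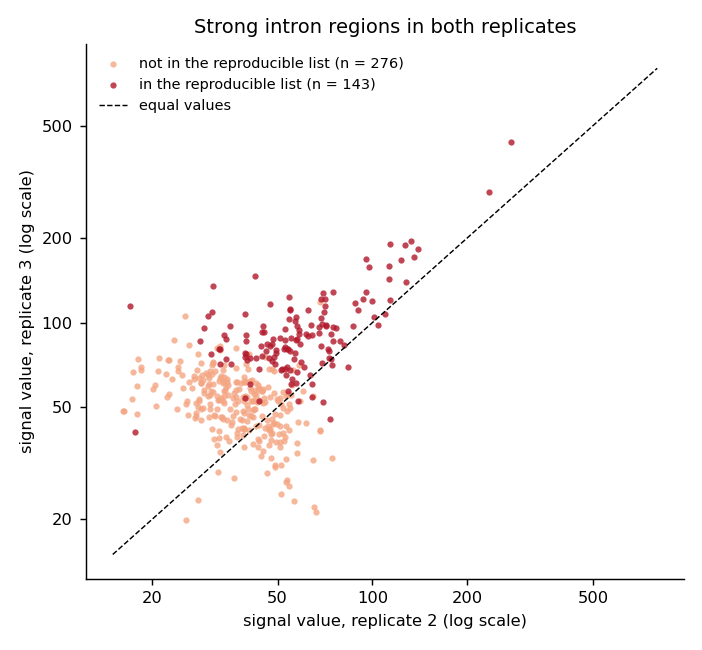
Signal values of the 419 strong intron regions found in both replicates, replicate 2 against replicate 3, both on log scales, with the line of equal values. Dark points are in the authors' reproducible list, and most points lie above the line, since 78 of 419 were higher in replicate 2.

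Regions at the ends of this range were far apart between the libraries. The highest ratio was in intron 1 of lmd-3, with 17 in replicate 2 and 114 in replicate 3. Y39A1C.1 had 31.2 and 134, and vps-25, which encodes a subunit of the ESCRT-II complex, had 25.3 and 105. In the opposite direction, a region in intron 2 of pha-4, the FoxA factor that specifies the pharynx, had 66.2 in replicate 2 and 21.2 in replicate 3. Regions in unc-43, which encodes CaM kinase II, and catp-1 had 65.2 against 22.2 and 56.2 against 23.2.

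Regions with no summit within 100 bp numbered 63 in replicate 2 and 27 in replicate 3. In most of them a summit lay a little farther off, within 200 bp for 42 of the 63 and for 24 of the 27. The strongest were drap-1, with a summit of replicate 2 at 136 bp (signal value 89.6), zfp-1, with one of replicate 3 just past 100 bp (118), and lag-1, with one of replicate 2 at 157 bp (62.9). The gene zfp-1 encodes a chromatin protein of the AF10 family and lag-1 the DNA-binding effector of Notch signalling. With summits matched within 50 bp 50.1% of the 507 were found in both replicates and within 200 bp 95.3%, so the share depends on the distance.

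The next question was in which introns the strong regions lie. They were found more often in intron 1, counted on 1 transcript of the host gene, than weaker intron regions were, and in longer introns. Intron 1 held 197 of 507 strong regions (38.9%, exact 95% interval 34.6 to 43.3%) and 1987 of 7325 weaker ones (27.1%, 26.1 to 28.2%). The odds ratio was 1.71, with a 95% interval of 1.41 to 2.06 (Fisher's exact test, two-sided, p = 3.6e-08, and 9.7e-08 after adjustment for 8 location tests). Later introns followed with 76 strong regions in intron 2, 45 in intron 3, 51 in intron 4, 37 in intron 5 and 101 beyond. Of all autosomal sequence at the same kind of place, read at every 200 bp, 24.5% lay in intron 1. Place and sequence had no part in the ranking by signal value. Since all regions come from the same 2 libraries, the p-values say nothing of how further cultures would vary.

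The host introns of strong regions had a median length of 3179 bp (quartiles 1266 and 6195 bp), against 1122 bp (534 and 3478 bp) for weaker ones. The mean log2 length was higher by 1.17 (95% interval 1.03 to 1.31, two-sided permutation test, p = 1.0e-05, the smallest that 100000 resamples can give, adjusted p = 1.1e-05). Without replicate 3 the difference was 0.69 (permutation test, adjusted p = 2.0e-05). Introns of 1 kb or more held 405 strong regions (79.9%) and 54.4% of the weaker ones. Such introns made up 48.7% of the sequence at this kind of place. Per Mb of intron, strong regions numbered 7.19 in introns under 1 kb, 24.6 in those of 1 to 5 kb and 45.6 in those of 5 kb or more. Weaker regions numbered 236, 269 and 372 per Mb, a smaller rise over the same lengths.

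Order and length are linked, since introns near the 5' end are often the long ones. In introns of 1 kb or more alone, a setting added after the data were seen, 172 strong regions lay in intron 1 and 233 in later introns, which is 43 and 24.7 per Mb. The odds ratio for intron 1 against weaker regions of such introns was 1.60 (Fisher's exact test, adjusted p = 2.2e-05).

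Among the longest introns with a strong region were those of kin-1, the catalytic subunit gene of protein kinase A (21230 bp), hmr-1, a cadherin gene (18310 bp), and elf-1 (17822 bp). The hmr-1 region had 180 in the pooled list, 69.2 in replicate 2 and 98.9 in replicate 3. The shortest introns were those of lec-10, a galectin gene (48 bp), gcy-18, a guanylate cyclase gene (80 bp), and C18D11.3 (90 bp), all far shorter than the usual region width of 436 bp. A summit in so short an intron cannot be told apart from one in the exons beside it. Only 5 of the 507 lay in introns under 200 bp, against 9.26% of weaker regions.

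**Figure D3:**
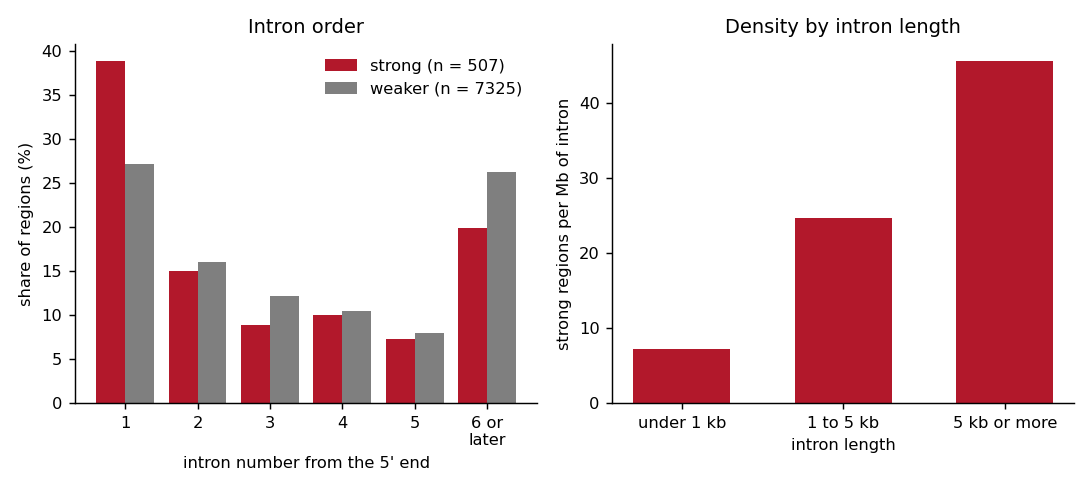
Left, share of the 507 strong and 7325 weaker intron regions (vertical axis, percent) by the number of the intron from the 5' end. Right, strong regions per Mb of intron sequence by intron length, rising from 7.19 under 1 kb to 45.6 at 5 kb or more.

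The median summit position was near the middle of these introns, which evenly spread summits would also give. The median distance from the intron's start was 1329 bp, or 53.7% of the way through the intron, and for weaker regions it was 514 bp and 50.9%. From the 5' end of the host gene the median distance was 3910 bp for strong and 2994 bp for weaker regions (mean log2 difference 0.39, 95% interval 0.24 to 0.53, two-sided permutation test, p = 1.0e-05, adjusted p = 1.1e-05). Without replicate 3 the difference was 0.23 (permutation test, adjusted p = 0.0028), and with 1 region per host gene it was 0.91 (1.3e-05). In introns of 1 kb or more this difference was 0.048 and did not pass (permutation test, adjusted p = 0.621).

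The surroundings of the summits also differed from those of weaker regions. The middle 50% of the chromosome held 293 strong regions (57.8%, exact 95% interval 53.4 to 62.1%) and 39.1% of the weaker ones. The odds ratio was 2.13 (95% interval 1.77 to 2.57, Fisher's exact test, p = 2.9e-16, adjusted p = 1.1e-15). The share was above that of weaker regions on each of the 5 autosomes and ran from 48.3% on III to 63% on IV. Intron sequence at the same kind of place had 43.6% there. Without replicate 2 the odds ratio fell to 1.23 (Fisher's exact test, adjusted p = 0.0268), and without replicate 3 it was 1.52 (6.7e-06).

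Genes of other non-coding RNAs and pseudogenes lay within 200 bp of 107 strong summits (21.1%, exact 95% interval 17.6 to 24.9%) and of 557 weaker ones (7.60%). This gave an odds ratio of 3.25 (95% interval 2.56 to 4.11, Fisher's exact test, p = 4.8e-20, adjusted p = 3.9e-19). With only summits outside the exons of every gene, those of non-coding genes included, it was 2.06 (45 of 443 strong regions, Fisher's exact test, adjusted p = 6.3e-05). Those annotated simply as ncRNA accounted for 97 of the 107. Antisense RNA genes lay at 7 strong summits, pseudogenes at 3, and genes of miRNAs, piRNAs and lincRNAs at 2 each. The B box word GTTCGANTC, part of the internal promoter of tRNA genes, was searched after the values were seen, since unannotated tRNA genes would escape the rule. It lay within 100 bp of 2 strong summits, in unc-104 and trd-1, and of 46 weaker ones (odds ratio 0.627, 95% interval 0.0735 to 2.41, Fisher's exact test, adjusted p = 0.768), while 46.4% of 336 autosomal tRNA genes held it. The word thus misses many tRNA genes. A summit without it can still lie at unannotated tRNA sequence, and whether any does was not tested. For piRNA genes the shares ran the other way, 0.394% of strong and 1.41% of weaker regions, a difference that was not tested.

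Starts of shorter isoforms were looked at after the data were seen, because the promoter rule uses 1 5' end per gene. Within the promoter window of another annotated transcript 5' end of the host gene lay 77 strong summits (15.2%, exact 95% interval 12.2 to 18.6%) and 600 weaker ones (8.19%). The odds ratio was 2.01 (95% interval 1.53 to 2.60, Fisher's exact test, p = 7.0e-07, adjusted p = 1.4e-06). Without replicate 3, when the strong regions are chosen by replicate 2, it was 1.34 and did not pass (Fisher's exact test, adjusted p = 0.0536). Annotated 5' ends are not always sites of initiation in worms, where many transcripts are trans-spliced.

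**Figure D4:**
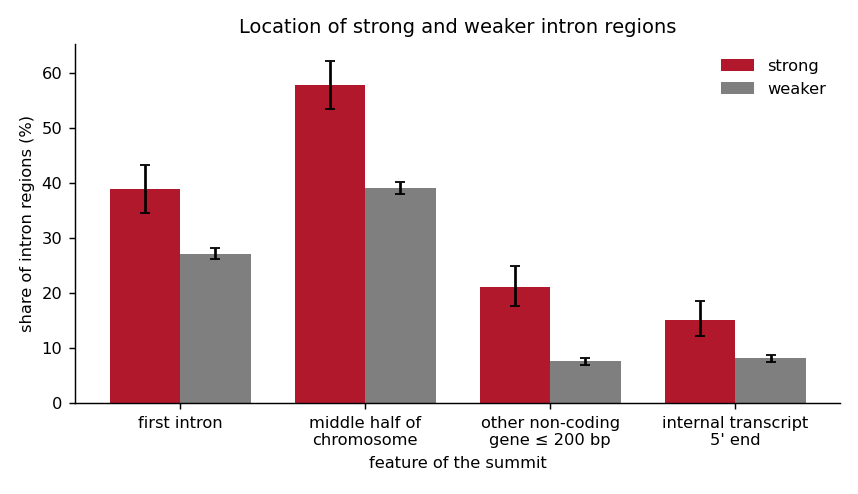
Share of strong and weaker intron regions (vertical axis, percent) with each of 4 features of the summit, with exact 95% intervals. Strong regions are higher in all 4: intron 1 (38.9 against 27.1%), middle 50% of the chromosome (57.8 against 39.1%), a non-coding gene or pseudogene within 200 bp (21.1 against 7.60%) and an internal transcript 5' end (15.2 against 8.19%).

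The sequence at the summits was compared by 6 words searched on both strands within 50 bp. GA and CA words were more frequent in strong than in weaker intron regions, and words with a TAAT core were less frequent. GAGAG lay at 218 of 507 strong summits (43%, exact 95% interval 38.6 to 47.4%) and at 16.1% of weaker ones (odds ratio 3.94, 95% interval 3.25 to 4.77, p = 8.3e-43 by Fisher's exact test and 5.0e-42 when adjusted for 6 words). The daf-2, mnk-1 and ntl-3 sequences printed above are examples. A run of 4 GA units, which contains GAGAG, lay at 51 strong summits (10.1%) and 1.86% of weaker ones (odds ratio 5.91, adjusted exact p = 3.1e-19). ACACAC, seen in the ast-1 and tba-7 sequences, lay at 93 (18.3%) and 5.17% (odds ratio 4.12, adjusted exact p = 2.9e-23). Without replicate 3 the odds ratios were 2.40 for GAGAG and 2.51 for ACACAC, and both passed.

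TAAT itself lay at 188 strong summits (37.1%) and 57% of weaker ones (odds ratio 0.445, 95% interval 0.368 to 0.538, adjusted exact p = 5.6e-18). The longer homeodomain words TAATTG or TAATTA, which contain TAAT, lay at 34 (6.71%) and 10.4% (odds ratio 0.620, adjusted exact p = 0.0091). This last call was lost without replicate 3, at an odds ratio of 0.722 (adjusted exact p = 0.0547), and with a signal limit of 65, at 0.792 (adjusted exact p = 0.062). It was also lost against the lowest-ranked weaker regions, at 0.657 (adjusted exact p = 0.104). The word TAAACG, known from homeodomains related to BarH, lay at 12 (2.37%) and 2.81%, a difference that was not detectable (odds ratio 0.838, 95% interval 0.423 to 1.51, adjusted exact p = 0.675). GAGAG and TAAT are the words that earlier results on these data had shown to differ at peaks in general. The other words also came from earlier results on these data, except the GA run, which contains GAGAG. The direction of all these words here is therefore no independent support.

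Within the strong regions, summits were set against equally wide windows 300 bp off, on the left and the right by turns. These windows were not limited to the intron, so some can lie in exons or near the summit of another strong region. GAGAG lay at 218 summits and 106 flanks (exact two-sided McNemar test, p = 1.7e-13, adjusted p = 1.0e-12 over 6 words). The run of 4 GA units lay at 51 and 7, each at the summit or the flank alone (adjusted exact p = 3.6e-09). ACACAC lay at 93 and 30 (adjusted exact p = 1.3e-09). TAAT lay at 188 summits and 295 flanks (adjusted exact p = 4.0e-11) and TAATTG or TAATTA at 34 and 73 (adjusted exact p = 9.4e-05). TAAACG lay at 12 and 19 (adjusted exact p = 0.281). Without replicate 3 the ratio of discordant pairs for the GA run went from 7.29 to 1.93 and did not pass (adjusted exact p = 0.0585). Those for GAGAG and ACACAC went from 2.81 to 1.90 and from 3.86 to 1.80, and passed. Without replicate 2 that for TAATTG or TAATTA went from 0.418 to 0.714 and did not pass (adjusted exact p = 0.187). It did not pass under 5 other settings either, at 0.571 to 0.684.

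Base composition moved with these words. Within 50 bp of the summit the mean G and C content was 47.1% in strong and 39.2% in weaker regions, a difference of 7.92 percentage points (95% interval 7.18 to 8.66, two-sided permutation test, p = 1.0e-05, adjusted p = 1.1e-05). Among regions with a G and C content of 40 to 50%, GAGAG lay at 46.2% of 234 strong and 21.2% of 2561 weaker regions. At 50% or more it lay at 49.7% of 179 and 26.1% of 790, and under 40% at 22.3% of 94 and 10.8% of 3974. TAAT lay at 61.7% and 70.2% under 40%, at 37.2% and 45.9% in the middle band, and at 24.0% and 26.2% in the highest. The GAGAG difference was thus present in each band, and the TAAT difference was smaller within bands than over all regions. The part of base composition in either result was not tested further.

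**Figure D5:**
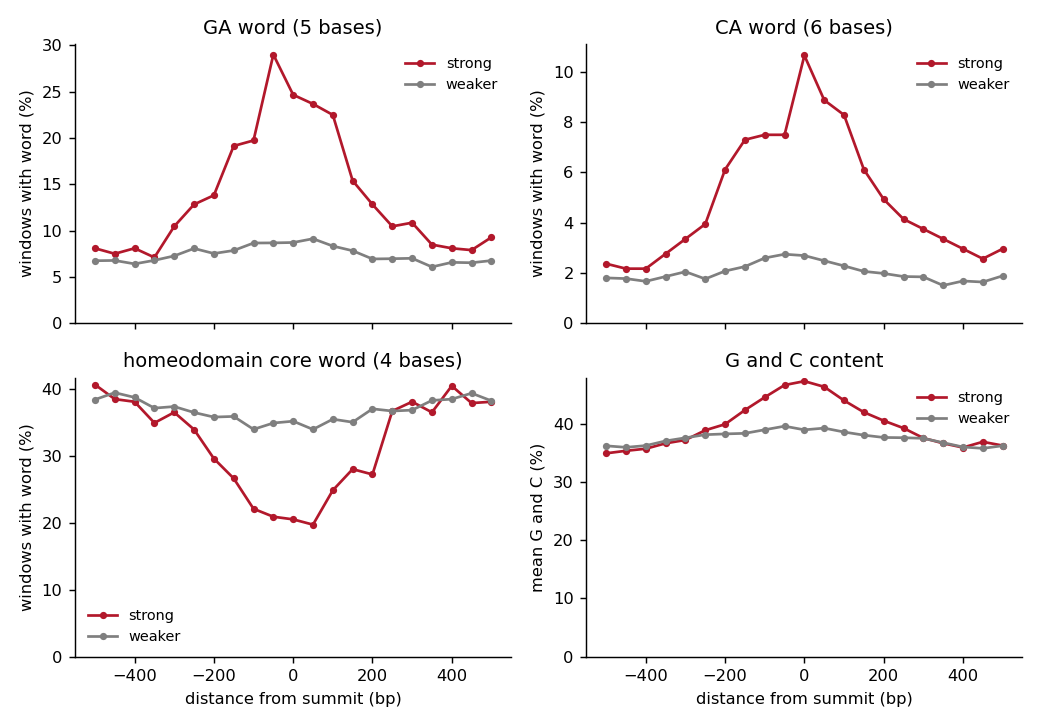
Share of 51-bp windows (vertical axes, percent) with the GA word, the CA word or the homeodomain core word on either strand, and their mean G and C content, by distance from the summit in bp, for strong and weaker intron regions. In strong regions the GA word rises from 8.09% at -500 bp to 24.7% at the summit and the homeodomain core word falls from 40.6% to 20.5%, while weaker regions go from 6.74 to 8.71% and from 38.4 to 35.2%.

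Against strong promoter regions of the autosomes, chosen by the same signal value and distance from small RNA genes, GA and CA words were also more frequent in introns. GAGAG lay at 43% of 507 intron and 34.8% of 603 promoter summits (odds ratio 1.41, 95% interval 1.10 to 1.81, p = 0.0064 by Fisher's exact test and 0.0129 when adjusted for 6 words). The run of 4 GA units lay at 10.1% and 4.64% (odds ratio 2.30, adjusted exact p = 0.0036), and with a signal limit of 100 this call was lost (2.05, adjusted exact p = 0.0548). ACACAC lay at 18.3% and 11.8% (odds ratio 1.68, adjusted exact p = 0.0067). TAAT, at 37.1% and 41.6%, showed no detectable difference (odds ratio 0.827, 95% interval 0.644 to 1.06, adjusted exact p = 0.186) except with a word window of 100 bp, where it was lower in introns (0.646, adjusted exact p = 8.1e-04). No difference was detectable for TAATTG or TAATTA (odds ratio 0.850, 95% interval 0.521 to 1.38, adjusted exact p = 0.675) or TAAACG (odds ratio 0.95, 95% interval 0.402 to 2.20, adjusted exact p = 1).

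Words also varied with strength and intron length, as a description. GAGAG lay at 39.8% of the regions with 80 to 100, 44.6% of those with 100 to 150 and 52.5% of those with 150 or more. ACACAC lay at 14.9, 19.8 and 29.5%, and TAAT at 42.4, 35 and 19.7%. The median G and C content rose alongside, from 45.5% to 47.5% and 52.5%. In introns under 1 kb GAGAG lay at 22.5% of 102 regions, against 49.4% of 245 in introns of 1 to 5 kb and 46.3% of 160 in longer ones. Intron 1 and later introns had like shares, 42.1% and 43.5%.

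The 507 regions lay in 366 host genes, which is 2.20% of the 16659 autosomal protein-coding genes with an intron. One region lay in each of 269 genes, 69 genes held 2, and 28 held 3 or more. The most in 1 gene was 5, in ppfr-1, let-526, zfp-1, lsy-22 and ncl-1, the last 2 of which were named after their values were seen. In lsy-22 all 5 lay in intron 1, spread over 5759 bp. In zfp-1 they lay in introns 4 and 9. In pqn-41 all 4 lay in intron 14, which is 10372 bp long.

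Some pairs were close together. Of neighbouring regions, 22 pairs overlapped, and in 17 of these the summits were 190 to 220 bp apart (median over the 22, 206 bp). The pairs in ints-8 (526 and 121), T24B8.3 (321 and 97.2), mdt-26 (319 and 105) and exc-7 (249 and 118.9) were of this kind and unequal in signal value. Over all 22 pairs the stronger region's value was a median of 1.40 times the weaker one's. Whether such a pair marks 1 place or 2 cannot be told apart in these lists.

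Host genes were also set against 8 lists of genes, with no test. Of autosomal genes whose longest intron is 1 kb or more, 8.47% of 3672 hosted a strong region, and this is the closer background for lists rich in long introns. In the list of cell adhesion, basement membrane and axon guidance, with a median longest intron of 2370 bp, 15 of 45 genes hosted one. The strongest of them lay in hmr-1, casy-1 (a calsyntenin, signal value 152), mig-10 (an adaptor of cell migration, 147) and smp-1 (a semaphorin, 134). In the synapse and pan-neuronal list, with a median longest intron of 2122 bp, 7 of 26 did, unc-104 first, then rab-3 (the synaptic vesicle GTPase, 131), ric-4 (SNAP-25, 130) and klc-2 (a kinesin light chain, 110). The unc-104 summit is the one with a pseudogene within 200 bp and the B box word of tRNA genes within 100 bp.

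In the signalling list 14 of 57 genes hosted a strong region, led by gsa-1, gpb-1, par-1 (a polarity kinase, 180) and lit-1 (a Nemo-like kinase, 163). Of the transcription factors 11 of 64 did, led by ast-1, pha-4 (119.4), zag-1 (a ZEB factor, 118) and skn-1 (a stress response factor, 116.2). Of the genes of RNA binding and splicing 4 of 38 did: exc-7, larp-1, mex-3 (83.6) and alg-2 (an Argonaute, 83.1). Of the ion channels and receptors 3 of 46 did: unc-49 (a GABA receptor, 108), slo-1 (a potassium channel, 90.1) and unc-103 (a potassium channel, 84.7). Of the muscle genes 2 of 25 did: lev-11 (tropomyosin, 90.8) and dys-1 (dystrophin, 90.5). None of 30 translation genes did, and their median longest intron was 171 bp.

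The transcription factor gene pha-4 held 3 strong regions, 2 in intron 1 and 1 in intron 2. Their values in replicates 2 and 3 were 49.3 and 78.0, 30.9 and 70.6, and 66.2 and 21.2, so the last was the strongest in replicate 2 and the weakest in replicate 3. The gene ceh-19 itself hosted none, and the nearest strong intron region, in npp-27, lay 43828 bp away. In intron 1 of unc-119, of which the worms carry a further copy in the transgene, lay 1 region with 92.7 in the pooled list, 33.7 in replicate 2 and 61.6 in replicate 3. Reads of the chromosomal and the transgene copy cannot be told apart in these lists.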

How the data were processed

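ChIP-seq regions of 2 biological replicates were analysed from narrowPeak lists on ce11. Per the deposited text files, replicate 2 (30000 regions), replicate 3 (29534) and both libraries together (30000) were each called with 1 control file, and 1112 reproducible peaks were then kept by the irreproducible discovery rate. For the peak caller and the aligner, name and version are not given in the sources used here. Signal values are those the authors deposited. Their deposited −log10 q-value entered no test. Depth is unknown, since no read counts were used.

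Genes came from Ensembl release 115 on the same assembly, and sequence from RefSeq. Introns were numbered on the transcript with the longest summed exons that has the summit in an intron. Where several genes hosted a summit (7 regions), the one with the shortest such intron was used. Shares were tested with Fisher's exact test, differences of means and medians by permutation (100000 resamples) and summits against flanks with McNemar's exact test, all two-sided, with Benjamini-Hochberg adjustment within each family at 0.05. Intervals of shares are Clopper-Pearson at the 95% level, for counting error alone.

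Members, words, gene lists and tests were chosen with earlier results of these data known. Named genes are hosts of the 25 strongest regions and of the strongest per chromosome, the 3 at each extreme of replicate ratio and of intron length, the 3 on each side of the limit, up to 10 hosts of several regions, up to 4 per gene list, and the 3 strongest regions missing from a replicate. Genes with the longest GA repeats, outside the chromosome whose sequence is not printed, were taken for their sequence. Internal 5' ends, the B box word, densities per Mb, composition bands, trd-1, lsy-22, ncl-1, npp-27, ceh-19, unc-119 and the other pha-4 regions were added after values were seen. Of the listed genes 4 were not found by name. Tests were run on simulated data first, in Python 3.11.15 (scipy 1.17.1, numpy 2.4.6, with figures from matplotlib 3.10.9).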

Additional observations from a re-analysis of the deposited data

How the results depend on the processing

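The signal limit, windows, annotation, weaker set and replicate were varied, giving 320 alternative values of 30 results. Of the 304 with a test, 276 kept their direction and their side of the threshold. Differences between strong and weaker regions in intron order, intron length, other non-coding genes, middle of the chromosome, G and C content, GAGAG, the GA run, ACACAC and TAAT passed under every alternative run for them. A limit of 100 gave 238 strong regions and 65 gave 1021, with 86.1% and 72.2% found in both replicates. Matching within 50 bp gave 50.1% and within 200 bp 95.3%.

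For TAAACG against weaker regions the odds ratio was 1.06 with a limit of 100 and 1.07 with 65, and 0.962 to 1.01 with 1 replicate. Against promoters it was 1.16 with a limit of 100. Against flanks its ratio was 1 with a word window of 100 bp and 1 with flanks at 500 bp, and 0.889 to 1.31 with 1 replicate. The odds ratio of TAATTG or TAATTA against weaker regions was 0.792 with a limit of 65, 0.657 against the lowest-ranked regions and 0.654 to 0.722 with 1 replicate. Against flanks it was 0.630 with wider promoters, 0.571 with 1 region per gene, 0.635 with flanks at 500 bp, 0.684 with all transcript 5' ends, 0.605 in introns of 1 kb or more and 0.603 to 0.714 with 1 replicate. Against flanks none of these passed except the value without replicate 3, and against weaker regions none except that without replicate 2.

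For the GA run against flanks, single replicates gave 1.93 to 5.22, and against promoters a limit of 100 gave 2.05 (exact test, adjusted p = 0.0548). TAAT against promoters was 0.646 with a window of 100 bp and then passed. Internal 5' ends had odds ratios of 1.34 to 1.71 with 1 replicate. The B box odds ratio was 1 against the lowest-ranked regions. The distance to the 5' end differed by 0.0482 in introns of 1 kb or more. The replicate ratio against promoters differed by -0.0256 (50 bp), -0.0439 (limit of 65) and -0.00286 (no other non-coding gene nearby), and against intergenic regions by 0.00229 (200 bp), 0.0262 (limit of 100) and 0.0129 (no other non-coding gene nearby). For each change the cause was not tested.

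No paired analysis was possible because there is 1 group. Leaving out regions near other non-coding genes gives no value for that comparison, and all transcript 5' ends give none for internal ones. Settings with all transcript 5' ends or long introns were chosen after seeing the data. Signal values without read counts limit how well regions near 80 are ranked.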
